A study of Mus musculus and Rattus norvegicus with 53 samples.

Results

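The 10 genes described here encode proteins of the elastic fibre and the enzymes that cross-link it: the fibrillins Fbn1 and Fbn2, elastin (Eln), the fibulins Fbln2 and Fbln5, and the lysyl oxidase family Lox, Loxl1, Loxl2, Loxl3 and Loxl4. They were found by their gene symbols in the mouse count tables, where they make up 10 of 24016 genes. The set was chosen by function with earlier results of these data known, and was selected on the pooled counts of bridge and distal Schwann cells (SCs), among which Fbn2 was lower in the bridge. All differences of the 10 genes between those 2 groups are therefore given as a description with no test.

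An elastic fibre has a core of cross-linked elastin inside a mantle of microfibrils. Fibrillins are large secreted glycoproteins that polymerise into the microfibrils, and fibulins link tropoelastin, the soluble precursor, to them. Lysyl oxidases are copper-dependent amine oxidases that turn lysine side chains of elastin and fibrillar collagens into reactive aldehydes, which then form the cross-links. In peripheral nerve, elastic fibres run in the connective tissue sheaths, and a cut nerve fills its gap with a newly laid matrix, the bridge, through which SCs migrate.

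The cells came from tdTom SC mice, male and female and aged 6 to 8 weeks, which carry a Cre transgene active in the neural crest lineage and a Cre-activated tdTomato reporter. In these mice tdTomato marks cells with a history of Cre activity and not SC identity at the time of sorting. One sciatic nerve was fully transected, and tdTomato+ cells were sorted by FACS from the uncut contralateral nerve (iSCs), from the stump distal to the wound (dSCs) and from the bridge (bSCs). By antibody staining and FACS, the paper found the SC protein S100β in the large majority of tdTomato+ cells of each region. It found the protein in almost no tdTomato- cells. In the pooled-nerve experiment each library held nerves of 3 mice, collected on day 6, with 4 libraries of iSCs, 4 of dSCs and 4 of bSCs. In the single-nerve time course each library came from 1 nerve, with 5 libraries of iSCs, 3 of dSCs on days 1 and 2 and again every second day from day 4 to day 10, and 3 of bSCs at each time from day 4 on. No group carried any other allele or agent.

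Gene counts ranged from 11435463 to 22617054 per pooled library and from 9240883 to 22426128 per single-nerve library. All 10 genes passed the filter on low counts in both experiments. In 4 single-nerve libraries, iSC replicates 0 and 1, dSC day 1 replicate 1 and dSC day 2 replicate 0, the fewest genes were detected, from 10042 upwards, against up to 15815 elsewhere. The day 4 dSC and bSC libraries numbered 1, from the same mouse, nearly coincided: a chi-square per degree of freedom of 3.9 separated their counts, against at least 46.2 in the other 660 pairs of libraries within an experiment, so values with and without them are given below. The 6 SC markers Sox10, S100b, Erbb3, Ngfr, Mbp and Egr2 summed to 5311 to 16386 CPM (counts per 1000000 of the TMM-scaled library size) in pooled iSCs, 1075 to 4292 in dSCs and 717 to 2744 in bSCs. Most of the pooled iSC sum was Mbp (4598.99 to 15322.5 CPM), so the sum is no measure of SC number. In the edgeR test described below, 4 of the 6 were lower in pooled dSCs than in iSCs, and 4 in pooled bSCs. Ngfr was higher in both, by log2 differences of 2.65 and 1.95. In single nerves the 6 summed to 1787.0 to 10006.5 CPM in iSCs. They summed to 671.9 to 1829.9 CPM in dSCs and 242.7 to 1928.1 in bSCs of days 4 to 10.

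Transcripts of other cell types were present too. The 8 fibroblast markers (Pdgfra, Dcn, Lum, Dpt, Clec3b, Pi16, Cd34 and Ly6a) summed to 6212 to 30042 CPM in pooled iSCs, 16655 to 26190 in pooled dSCs and 1332 to 5597 in pooled bSCs. In the edgeR test, 3 of the 8 (Dcn, Lum and Pi16) were called lower in pooled bSCs than in either other region. In single nerves the 8 fibroblast markers summed to 12642 to 23492 CPM in iSCs, 7776 to 27750.0 in dSCs and 3307 to 17306 in bSCs of days 4 to 10. The 6 macrophage markers (Cd68, Csf1r, Aif1, Lyz2, C1qa and Emr1) summed to 221 to 897 CPM in single-nerve iSCs, 1873 to 11366 in dSCs and 731 to 10900 in bSCs, and 6 of 6 rose in dSCs and in bSCs. In pooled cells the macrophage sum was 154 to 4205 CPM in iSCs, 7930 to 12952 in dSCs and 2001 to 5733 in bSCs. Endothelial markers (Pecam1, Cdh5, Kdr, Emcn and Tie1) summed to 53.0 to 2369 CPM over all libraries, mural markers (Rgs5, Pdgfrb, Cspg4, Myh11 and Acta2) to 194 to 4559.7 CPM, and perineurial markers (Slc2a1, Cldn1, Msln and Lypd2) to 90.5 to 2121 CPM. No marker of any list was at 0 in all libraries of any group, and the part of these cell types in the results below was not tested. In such sorted bulk samples, fewer cells of a type and less RNA per cell cannot be told apart.

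Relative to uncut nerve, the fibrillin Fbn2 and the lysyl oxidase Loxl2 were higher in the distal stump and in the bridge of both experiments. Fbln2 was higher in pooled bSCs, and Fbn1 in single-nerve dSCs. In edgeR's quasi-likelihood test with Benjamini-Hochberg adjustment over all genes, 2 of 10 genes rose in pooled dSCs, where 2.63% of all genes tested rose and 2.69% fell, and 3 of 10 rose in pooled bSCs, where 7.24% rose and 7.46% fell. In the time course, with days 4 to 10 averaged, 3 of 10 rose in dSCs (1.84% of all genes rose and 3.49% fell) and 2 of 10 in bSCs (2.58% rose and 6.75% fell). The dSC and bSC comparisons of an experiment use the same iSC libraries, and both pooled comparisons use libraries of the contrast by which Fbn2 was singled out.

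**Figure D1:**
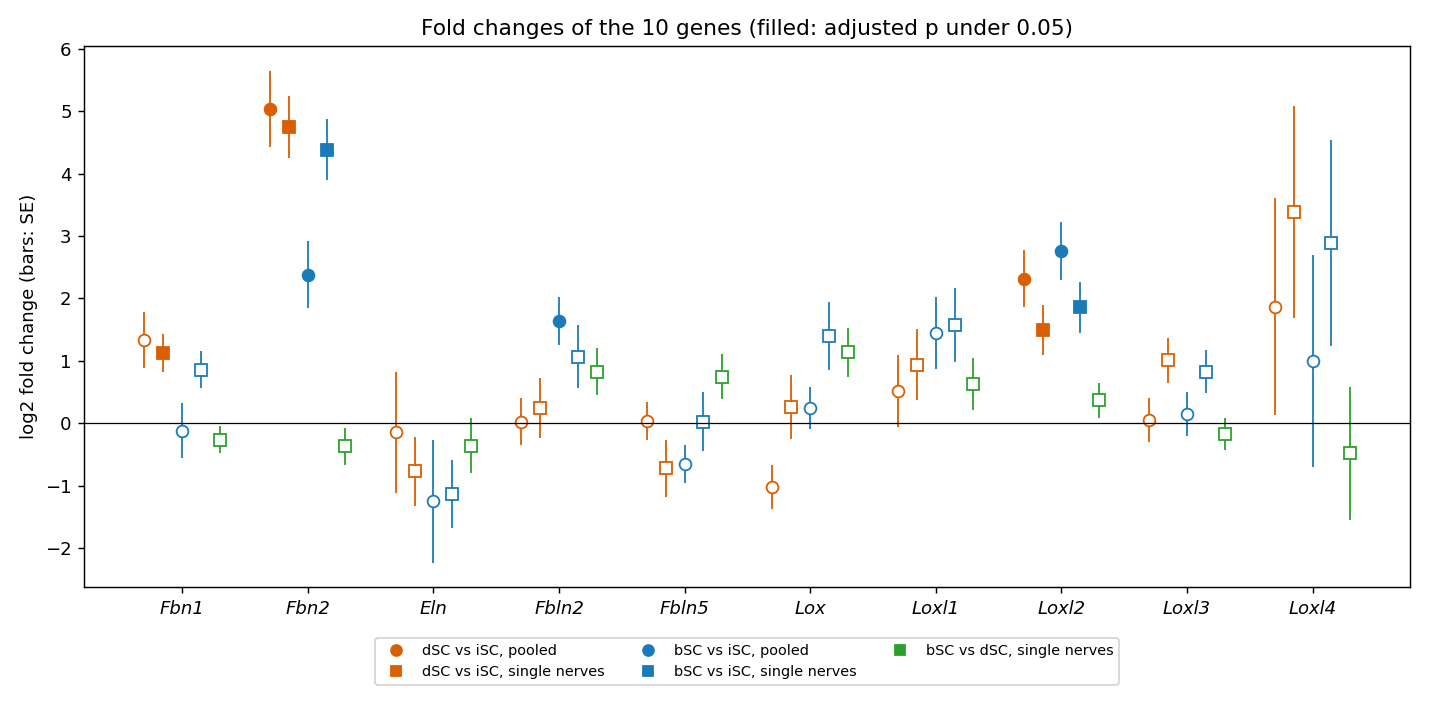
Fitted log2 fold change (points, with bars for the SE) of each gene in dSCs or bSCs relative to iSCs in pooled nerves (circles) and single nerves (squares), and in bSCs relative to dSCs in single nerves; filled symbols have an adjusted p under 0.05. Fbn2 has the largest difference in pooled dSCs (5.04) and in single-nerve dSCs (4.75) and bSCs (4.38), while Eln is filled in none.

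Fbn2 (chr18:58168277-58369580, minus strand, NCBIM37/mm9), the fibrillin typical of developing tissue, was scarce in uncut nerve. The 4 pooled iSC libraries held 5.93, 8.24, 11.1 and 14.7 CPM. Pooled dSCs held 493, 285, 135 and 400.1 CPM, and pooled bSCs 95.7, 54.1, 12.98 and 44.6 CPM. All dSC libraries lay above all iSC and bSC libraries, while bSC replicate 3 fell inside the iSC range. The log2 difference from iSCs was 5.04 ± 0.61 (SE, n = 4 per group, 32.9-fold, adjusted p = 0.000666) in dSCs and 2.38 ± 0.54 (5.20-fold, adjusted p = 0.0105) in bSCs. Both comparisons reuse libraries of the contrast by which Fbn2 was singled out, so these p-values are not independent of that choice. The bSC call was lost with a covariate for libraries deposited as 1 file or as a pair of lanes (1.95, adjusted p = 0.0566).

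**Figure D2:**
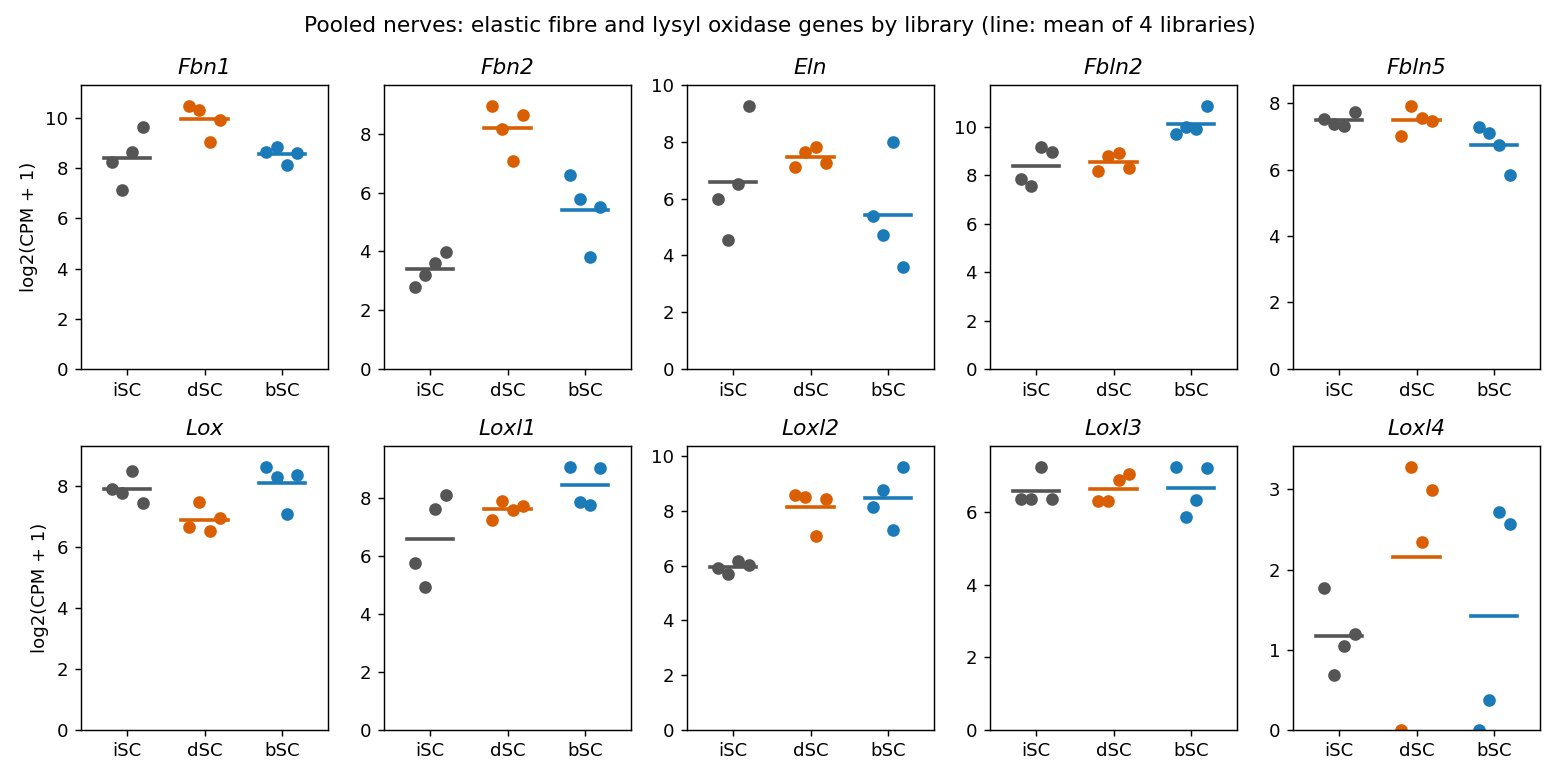
Level of each gene, as log2(CPM + 1), in each of the 12 pooled-nerve libraries (points) and the mean of each group of 4 (lines). Fbn2 in dSCs (135 to 493 CPM) lies above every iSC library (5.93 to 14.7 CPM), and Fbln2 in bSCs (840.4 to 1869 CPM) lies above every iSC and dSC library.

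The time course, which played no part in the choice of Fbn2, placed its rise between day 1 and day 4. Single-nerve iSCs held 4.32, 8.43, 8.40, 4.89 and 4.84 CPM, and day 1 dSCs held 0.792, 6.61 and 15.9 CPM, a range that includes all 5 iSC values. On day 2 the dSC libraries held 36.1, 59.2 and 42.0 CPM, above every iSC and day 1 value. They reached 159, 224 and 252 CPM on day 4 and 205, 203 and 208 CPM on day 6, the 6 values of these days again lying above all those of day 2. On days 8 and 10 they held 136, 97.5, 168, 77.3, 96.3 and 217 CPM, a range that overlaps that of days 4 and 6. The dSC mean of days 4 to 10 was 170 ± 57.3 CPM (SD, n = 12) against 6.18 ± 2.05 (n = 5) in iSCs, a log2 difference of 4.75 ± 0.50 (SE, adjusted p = 7.24e-07). Across iSCs and the 6 days of dSCs, Fbn2 varied at an adjusted p of 3.31e-06, one of the 0.767% of genes that did. Fbn2 kept these calls under every alternative run, with differences from iSCs of 4.65 to 4.93 in dSCs and 4.23 to 4.54 in bSCs.

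In bSCs of single nerves Fbn2 was at 248, 221 and 264 CPM on day 4, 130, 268 and 87.6 on day 6, 83.2, 94.0 and 130 on day 8, and 84.3, 50.1 and 67.2 on day 10. The day 4 values lay above all those of days 8 and 10. Against iSCs the log2 difference over days 4 to 10 was 4.38 ± 0.49 (SE, adjusted p = 1.58e-06).

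The pooled contrast by which Fbn2 was singled out was much smaller in single nerves. In pooled cells bSCs averaged 51.8 ± 34.1 CPM (SD, n = 4) and dSCs 328 ± 154, a log2 difference of -2.66, with values of -3.14 to -2.32 when each library was left out in turn. Among all genes of this pooled contrast 2.31% were higher and 3.11% lower in bSCs. In single nerves the mean over days 4 to 10 was 144 ± 82.3 CPM in bSCs and 170 ± 57.3 in dSCs (n = 12 each), a log2 difference of -0.37 ± 0.29 (SE, adjusted p = 0.877), and bSC and dSC ranges overlapped on each of the 4 days. On day 6 alone, the day of the pooled nerves, the fitted difference was -0.34 (adjusted p = 0.999). Fbn2 was higher in the bSCs of 3 of 10 mice with both regions sequenced, with a median bSC minus dSC difference of -0.21 on the log2(CPM + 1) scale, and in 3 of 9 without the nearly coinciding libraries. Beside this stand the fibroblast and macrophage sums above, whose pooled bSC and dSC ranges did not overlap, while those of single nerves did. The mural sums did the same, but with pooled bSCs the higher (293 to 1037 CPM, against 194 to 252 in dSCs). The part of these cell types in the difference was not tested.

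**Figure D3:**
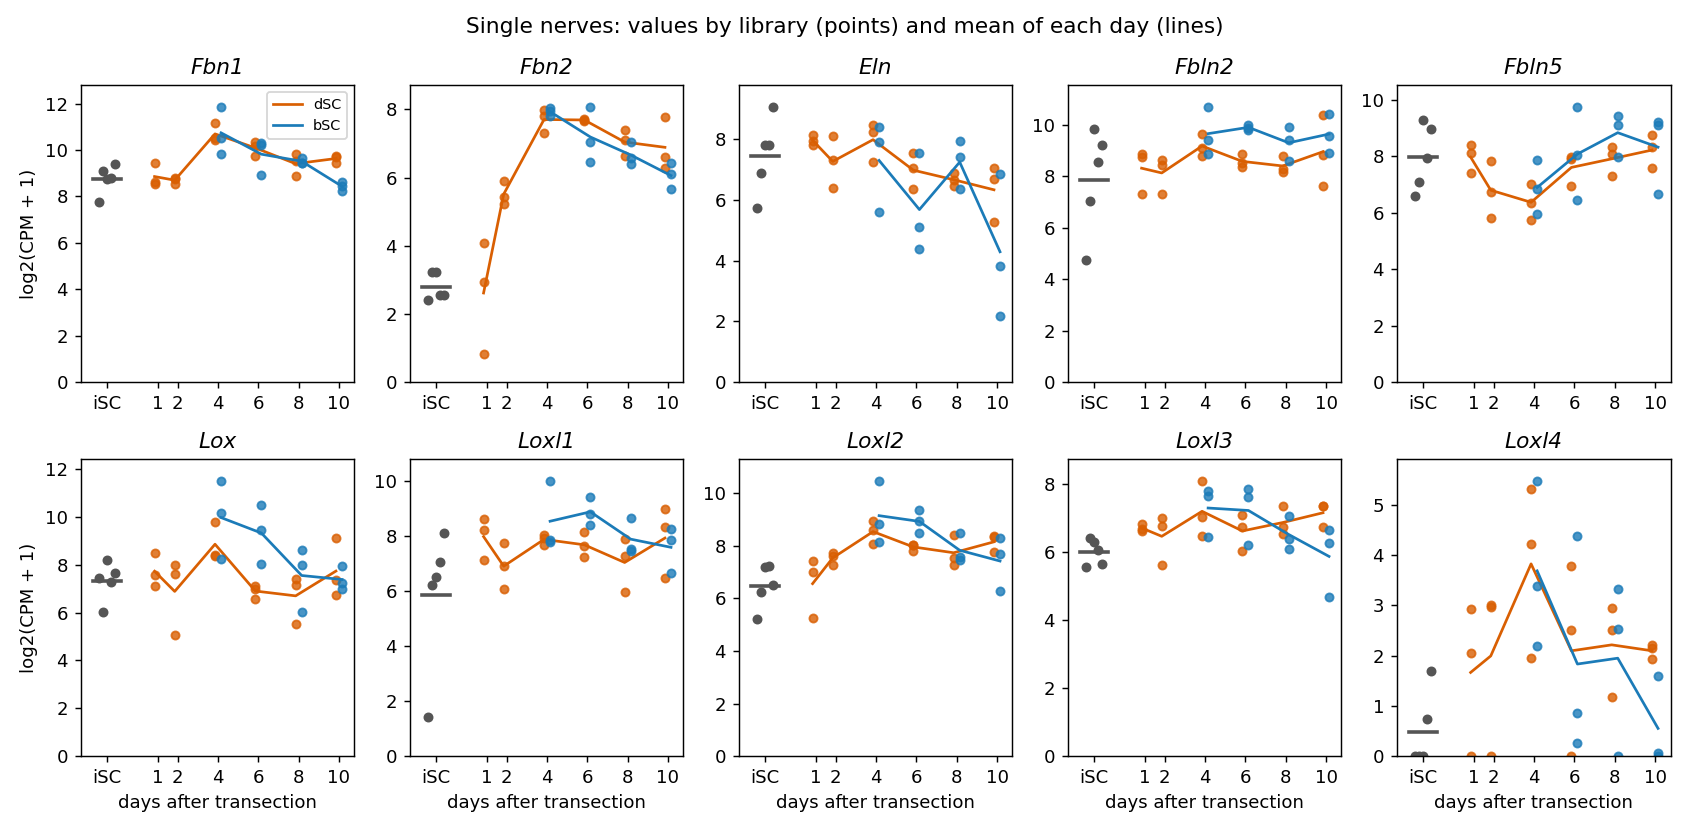
Level of each gene, as log2(CPM + 1), in each single-nerve library (points) against days after transection, with iSCs and their mean at the left and lines through the daily means of dSCs and bSCs. Fbn2 in dSCs stays at 0.792 to 15.9 CPM on day 1, is at 36.1 to 59.2 on day 2 and at 159 to 252 on day 4, and Fbn1 in bSCs is below dSCs on day 10.

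Fbn1 (chr2:125126330-125333729, minus strand), the main fibrillin of adult tissue, was abundant in uncut nerve and rose less. Pooled iSCs held 304, 138, 401 and 804 CPM, pooled dSCs 1422, 1265, 530.5 and 966, and pooled bSCs 402, 453, 279 and 382. The dSC libraries overlapped the iSC libraries through dSC replicate 3 and iSC replicate 5, and the difference did not pass (log2 difference 1.34 ± 0.45 SE, adjusted p = 0.116). Without iSC replicate 5 it was 1.93 (adjusted p = 0.0145), and DESeq2 called it with all libraries (1.35, adjusted p = 0.0321). The bSC libraries lay below all 4 dSC libraries, by a log2 difference of -1.46 (-1.68 to -1.28 with each library left out), and within the iSC range.

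In single nerves Fbn1 rose in dSCs, from 464 ± 172 CPM (SD, n = 5) in iSCs to 1078 ± 479 (n = 12), a log2 difference of 1.13 ± 0.30 (SE, adjusted p = 0.0277). On days 1 and 2 the dSC libraries lay between 366 and 699.8 CPM, against 214 to 680.3 in iSCs. Day 4 held the highest dSC values, at 1367, 1471 and 2269 CPM. In bSCs it held 918, 1474 and 3708 CPM, the lowest of which lay below bSC libraries of day 6 at 1183 and 1268 CPM. The variation over iSCs and dSC days had an adjusted p of 0.0269, which became 0.0507 without the nearly coinciding day 4 libraries, and the rise in dSCs lost its call without iSC replicate 0 (0.99, adjusted p = 0.0741). Between bSCs and dSCs the difference over days 4 to 10 was -0.26 ± 0.22 (SE, adjusted p = 0.901). By day 10 the bSC libraries, at 298, 397 and 349 CPM, all lay below the dSC libraries, at 865, 689 and 843 CPM. The change of the regional difference with day was called by edgeR for 0 of the 10 genes and for 0% of all genes tested, with 1 of the 10 (Lox) at an unadjusted p under 0.05 and 0 called by DESeq2, and the share of genes called in the bSC to dSC contrast itself was 0% higher and 0.103% lower. Reads of Gm9913, which overlaps Fbn1 exons on the other strand, cannot be told apart from Fbn1 reads in these unstranded libraries.

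Eln (chr5:135179651-135223111, minus strand), the elastin precursor, varied widely from library to library and passed no test with all libraries. Pooled iSCs held 62.7, 22.03, 91.0 and 614 CPM, pooled dSCs 137, 199, 227 and 152, and pooled bSCs 41.0, 25.02, 255 and 10.9. The single high iSC and bSC libraries (replicates 5 and 3) carried most of their group means. Against iSCs the log2 difference was -0.14 ± 0.97 (SE) in pooled dSCs and -1.25 ± 0.98 in pooled bSCs, and -0.77 ± 0.55 and -1.13 ± 0.55 in single-nerve dSCs and bSCs, with adjusted p-values of 0.976, 0.461, 0.474 and 0.204. The pooled direction rested on iSC replicate 5, without which Eln differed by 1.64 (adjusted p = 0.354) in dSCs and 0.52 (adjusted p = 0.762) in bSCs. In single nerves iSCs spanned 51.5 to 530.2 CPM, dSCs of days 4 to 10 spanned 37.2 to 351 with a median of 124, and bSCs 3.55 to 337 with a median of 97.7. The bSC libraries of day 10 alone held 13.3, 114 and 3.55 CPM, and without the library at 114 CPM the fall in bSCs against iSCs passed (-1.72, adjusted p = 0.027).

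Fbln2 (chr6:91162449-91222534, plus strand), a fibulin that binds fibrillin and tropoelastin, was higher in pooled bSCs than in every other pooled library. Pooled iSCs held 232, 190.3, 579 and 506 CPM, and pooled dSCs 286, 439, 492 and 318 CPM, nearly the same range. Pooled bSCs held 840.4, 1015, 969 and 1869 CPM, above all 8 other pooled libraries. Against iSCs the log2 difference was 1.64 ± 0.39 (SE, n = 4 per group, 3.11-fold, adjusted p = 0.0129) in bSCs and 0.03 ± 0.38 (adjusted p = 0.989) in dSCs. The untested bSC minus dSC difference was 1.61 (1.29 to 1.75 with each library left out).

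In single nerves Fbln2 averaged 864 ± 377 CPM (SD, n = 12) in bSCs and 499.8 ± 309 in dSCs, a log2 difference of 0.83 ± 0.37 (SE, unadjusted p = 0.031, adjusted p = 0.463). On day 6 the bSC libraries held 949.8, 1036 and 902 CPM and the dSC libraries 371, 328 and 462 CPM, without overlap. Pairing the regions within mice, Fbln2 was higher in bSCs in 10 of 10 mice, by 0.07 to 2.79 with a median of 1.01 on the log2(CPM + 1) scale. These pairs leave out 1 bSC library of day 10 whose labels conflict. With unpaired libraries included, day 10 held 485, 766 and 1384 CPM in bSCs and 199.5, 457 and 1353 CPM in dSCs, which overlap. The fit with the mouse as a replicate block called 236 of 16190 genes, and Fbln2 was the 1 gene of the 10 that passed (1.34, adjusted p = 0.012). It still passed without the nearly coinciding pair (1.39, adjusted p = 0.0185), where 177 of 16138 genes were called. The call was lost without day 10, which holds 1 pair (1384 CPM in bSCs, 199.5 in dSCs). The difference was then 0.90 (adjusted p = 0.178), in a fit that called 0 of 14556 genes. Against single-nerve iSCs, which spanned 25.8 to 909 CPM, the difference was 1.07 (adjusted p = 0.191) in bSCs and 0.24 (adjusted p = 0.865) in dSCs.

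**Figure D4:**
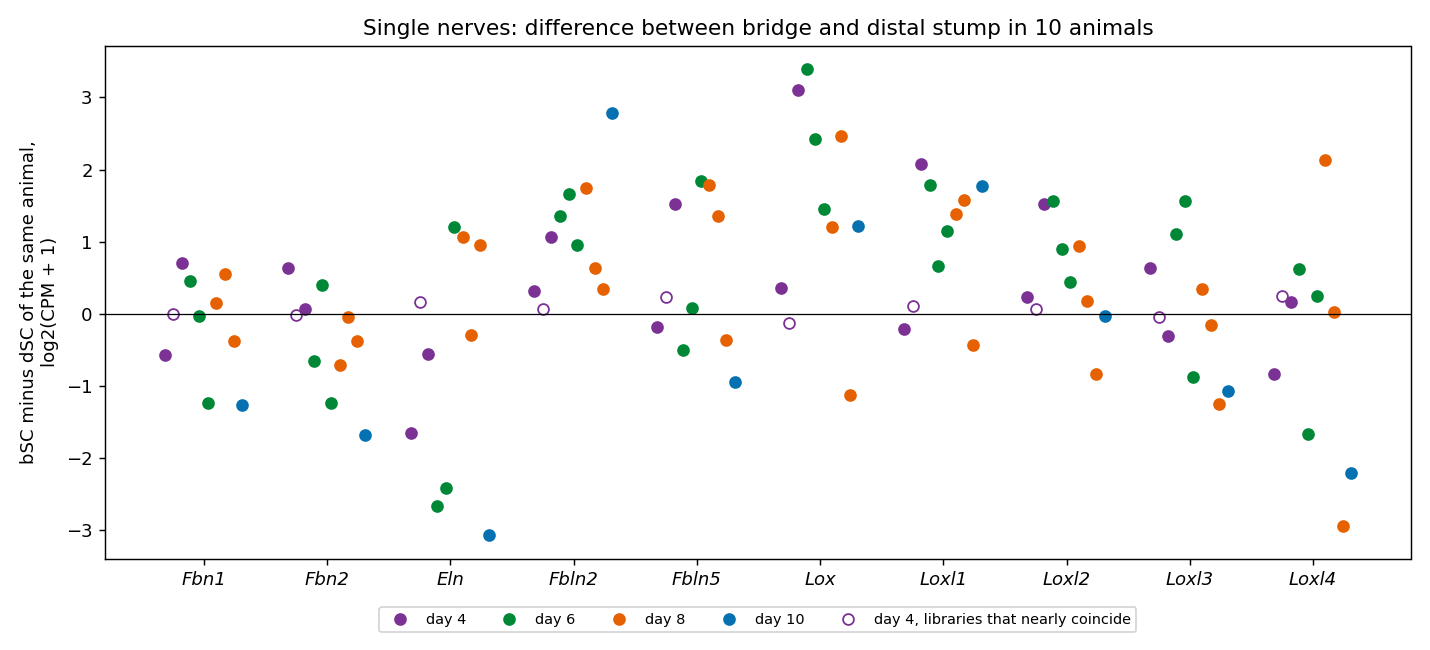
Difference between bSCs and dSCs of the same mouse on the log2(CPM + 1) scale for each gene in 10 mice of the single-nerve experiment, 1 point per mouse coloured by day, with the nearly coinciding day 4 pair as open circles. Fbln2 lies above 0 in 10 of 10 mice (median 1.01), Lox and Loxl1 in 8 of 10 each, and Fbn2 in 3 of 10.

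Fbln5 (chr12:102984775-103057265, minus strand), which tethers elastin to cells and recruits lysyl oxidase activity to it, passed no test. Pooled iSCs held 157 to 212 CPM and pooled dSCs 129 to 241 CPM, while pooled bSCs, at 156, 136, 107 and 56.2 CPM, lay just below all 4 iSC libraries (log2 difference -0.65 ± 0.30 SE, adjusted p = 0.17). In single nerves the direction between regions was the other way, with 362 ± 272 CPM (SD, n = 12) in bSCs and 214 ± 112 in dSCs (log2 difference 0.75 ± 0.36 SE, unadjusted p = 0.0469, adjusted p = 0.543). On day 4 the dSC libraries were at 129.99, 52.7 and 79.6 CPM, against 95.3 to 620.4 in iSCs.

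Among the cross-linking enzymes, Loxl2 (chr14:70008978-70095640, plus strand), which can cross-link basement membrane collagen, was higher in all 4 comparisons with iSCs. The pooled iSC libraries were tightly grouped at 59.5, 50.6, 70.3 and 64.9 CPM. Pooled dSCs held 380.3, 362, 135 and 346 CPM and pooled bSCs 282, 433, 159 and 788, all above the iSC range. The log2 difference from iSCs was 2.32 ± 0.45 (SE, 4.99-fold, adjusted p = 0.0102) in dSCs and 2.76 ± 0.46 (adjusted p = 0.00163) in bSCs. The untested pooled difference between bSCs and dSCs was 0.44 (-0.07 to 0.71 with each library left out).

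Single-nerve iSCs held 36.3, 75.1, 145, 151 and 90.9 CPM of Loxl2. The 12 dSC libraries of days 4 to 10 ranged from 154 to 492 CPM with a median of 267, all above iSCs, and the 12 bSC libraries from 76.1 to 1417 CPM with a median of 335. The log2 difference was 1.5 ± 0.40 (SE, adjusted p = 0.0273) in dSCs and 1.86 ± 0.41 (adjusted p = 0.00537) in bSCs. The dSC call was lost when iSC replicate 0, 1 or 5 or dSC day 8 replicate 2 was left out (adjusted p = 0.0786, 0.0657, 0.0517 and 0.0505), whereas the bSC call held without any 1 of the iSC or bSC libraries. The bSC to dSC difference was 0.37 ± 0.28 (SE, adjusted p = 0.878).

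Lox (chr18:52675723-52689521, minus strand), the founding member of the family, acts on elastin and fibrillar collagens. Pooled iSCs held 241, 221, 362 and 175 CPM, pooled dSCs 100.4, 179.7, 90.9 and 123, and pooled bSCs 401, 318, 137 and 331. Of the dSC libraries, 3 of 4 lay below all iSC libraries (log2 difference -1.02 ± 0.35 SE, adjusted p = 0.124), and bSCs overlapped iSCs (0.25 ± 0.34, adjusted p = 0.714). The untested bSC minus dSC difference was 1.26 (1.07 to 1.51 with each library left out).

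In single nerves the mean level of Lox over days 4 to 10 was again higher in bSCs, though not on day 10. Its level differed strongly between mice. The bSC libraries held 1146, 302 and 2885 CPM on day 4, 1450.3, 690.4 and 260.0 on day 6, 395, 253 and 64.0 on day 8, and 148, 125 and 245 on day 10. The dSC libraries held 890.1, 329.5 and 336 CPM on day 4 and 138, 127 and 94.7 on day 6. They spanned 45.1 to 170 CPM on day 8 and 105 to 557 on day 10, where they averaged 275 CPM against 173 in bSCs. The regions separated without overlap on day 6 only. Over days 4 to 10 the log2 difference was 1.14 ± 0.39 (SE, n = 12 each, unadjusted p = 0.00663, adjusted p = 0.247). Lox was higher in bSCs in 8 of 10 mice, with a median of 1.33, and in 8 of 9 without the nearly coinciding pair. It passed (1.53, adjusted p = 0.0384) once that pair was left out together with bSC day 8 replicate 2 and dSC day 10 replicate 0, a choice made after seeing the data. Both of these were nearest in expression to a library of the other region, but so were other libraries that stayed in, and the call rests on that choice.

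Loxl1 (chr9:58135530-58161019, minus strand), an elastin cross-linker that binds Fbln5, passed no edgeR test with all libraries. Pooled iSCs held 52.6, 29.1, 194 and 275 CPM, pooled dSCs 148, 236, 192 and 211, and pooled bSCs 536, 230.5, 213 and 526. The log2 difference from iSCs was 1.45 ± 0.58 (SE, adjusted p = 0.112) in pooled bSCs and 1.57 ± 0.59 (adjusted p = 0.0906) in single-nerve bSCs, and 0.52 (adjusted p = 0.791) and 0.94 (adjusted p = 0.379) in the dSCs of the same experiments. Without iSC replicate 5 of each experiment the bSC differences passed, at 2.07 (adjusted p = 0.0346) in pooled and 2.17 (adjusted p = 0.0359) in single nerves. On day 6 the bSC libraries held 691, 447 and 338 CPM against 201, 280.1 and 152 in dSCs, and bSCs were higher in 8 of 10 mice. The regions overlapped on days 4, 8 and 10, and on day 10 bSCs averaged 212 CPM against 304 in dSCs. Over days 4 to 10 the bSC to dSC difference was 0.63 ± 0.42 (SE, adjusted p = 0.794). One iSC library, replicate 0, held 1.67 CPM where the other 4 held 73.9 to 272.

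Loxl3 (chr6:82984167-83002556, plus strand), a less studied member of the family, passed no edgeR test. It held 80.8 to 152 CPM in pooled iSCs, 78.1 to 133 in dSCs and 57.0 to 151 in bSCs. In single nerves it was 64.4 ± 16.8 CPM (SD, n = 5) in iSCs, 131 ± 54.0 (n = 12) in dSCs and 123 ± 69.0 in bSCs, with log2 differences from iSCs of 1.01 ± 0.36 (SE, adjusted p = 0.0904) and 0.83 (adjusted p = 0.136). DESeq2 called the difference in dSCs (0.98, adjusted p = 0.0391). Exons of Htra2 overlap Loxl3 on the other strand, so reads of the overlap cannot be assigned. Loxl4 (chr19:42668472-42687303, minus strand) was close to the limit of detection, at 0 to 8.74 CPM in pooled libraries and 0 to 43.3 CPM in single nerves. It had 0 counts in 3 of 5 single-nerve iSC libraries and passed no test.

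On day 6, 4 of the 10 genes (Fbln2, Lox, Loxl1 and Loxl2) had all 3 single-nerve bSC libraries above all 3 dSC libraries, as had 7.60% of all genes tested, while 8.71% of all genes had them below. On day 10, 3 of the 10 (Fbn1, Loxl3 and Loxl4) had all 3 below, as had 7.38% of all genes, while 6.82% had them above. On days 4 and 8 the regions overlapped for each of the 10 genes, and the share over all genes was not counted for those days. In the fit for day 6 alone no member passed, with adjusted p-values of 0.685 for Fbln2, 0.663 for Lox, 0.795 for Loxl1 and 0.685 for Loxl2. Over days 4 to 10, 0 of the 10 genes were called between bSCs and dSCs by edgeR and 0 by DESeq2, and 3 (Fbln2, Fbln5 and Lox) had an unadjusted p under 0.05.

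Levels of different genes were compared per kilobase of exon (RPKM). In pooled iSCs the order began with Eln (76.5 ± 108, SD, n = 4), Fbln2 (64.2 ± 33.1) and Lox (53.2 ± 16.98), neighbours that did not differ beyond their spread, and ended with Loxl2 (11.5 ± 1.57), Fbn2 (0.952 ± 0.360) and Loxl4 (0.319 ± 0.182). In pooled dSCs Fbn1 stood first (86.2 ± 32.4), with Eln, Fbln2, Loxl1 and Loxl2 at 57.2 to 69.2, and Fbn2 reached 31.3 ± 14.7. In pooled bSCs Fbln2 (200 ± 79.9) and Loxl1 (113 ± 53.5) stood first, Fbn1 was at 31.2 ± 6.01 and Fbn2 at 4.95 ± 3.25. In single nerves, Eln again stood first in iSCs (88.4 ± 71.1, n = 5), Fbn1 in dSCs (88.9 ± 39.5, n = 12) and Fbln2 in bSCs (147 ± 64.2, n = 12), each within the spread of the gene next in order. Fbn2 was next to last in iSCs of both experiments.

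Other genes of the elastic fibre pathway were counted in lists. Of 19 genes of microfibrils and their assembly, Mfap2, a small microfibril glycoprotein, and Efemp2 (fibulin 4), which elastin assembly requires, rose in all 4 comparisons with iSCs. Mfap2 rose by a log2 difference of 1.92 ± 0.49 (SE, adjusted p = 0.039) in pooled dSCs, 1.60 ± 0.49 (adjusted p = 0.0424) in pooled bSCs, 1.59 ± 0.31 (adjusted p = 0.00254) in single-nerve dSCs and 2.04 ± 0.32 (adjusted p = 0.00015) in bSCs. Efemp2 rose by 1.49, 1.19, 1.49 and 1.38 in the same order (adjusted p = 0.0181, 0.0234, 0.00813 and 0.00962). These were the 2 of 19 called in dSCs of either experiment. In pooled bSCs Emilin1, an elastin-associated glycoprotein, rose as well (2.59, adjusted p = 0.0154), and 4 of 19 fell. They were Adamtsl4 (-4.27, adjusted p = 0.00612), Adamtsl5 (-2.99, adjusted p = 0.00961), Efemp1 (-2.35, adjusted p = 0.0365) and Thsd4 (adjusted p = 0.0019), which had no counts in 3 of 4 bSC libraries and 8.90 to 33.0 CPM in iSCs. Of these 4, only Adamtsl5 also fell in single-nerve bSCs (-1.56, adjusted p = 0.0362), where Emilin1 rose by 2.05 (adjusted p = 0.0333). The median log2 difference of the list was 0.06 in pooled dSCs and -0.46 in pooled bSCs, against -0.02 and -0.16 over all genes tested, and 0.02 and -0.26 in single nerves, against -0.08 and -0.15.

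Of the partners of lysyl oxidases, periostin (Postn), a matricellular protein that helps activate Lox, rose by 2.83 ± 0.34 (SE, adjusted p = 0.000666) in pooled dSCs, 4.94 ± 0.38 (adjusted p = 3.79e-05) in pooled bSCs, 2.52 ± 0.72 (adjusted p = 0.0352) in single-nerve dSCs and 3.57 ± 0.77 (adjusted p = 0.00415) in bSCs. Fibronectin (Fn1) rose in all of these except pooled bSCs, by 2.55 (adjusted p = 0.0172), 1.92 (adjusted p = 0.00315) and 1.79 (adjusted p = 0.00374). Tll2, a protease of the Bmp1 family, was called lower in single-nerve bSCs (adjusted p = 0.0196), where it had counts in 0 of 12 libraries, but it had counts in only 2 of 5 iSC libraries. In total 2 of 6 partners tested rose in pooled dSCs, 1 of 6 in pooled bSCs, 2 of 7 in single-nerve dSCs, and in single-nerve bSCs 2 of 7 rose and 1 fell, with medians of 1.01, 0.38, 0.77 and 0.88.

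Of 5 fibrillar collagen genes, Col5a2 rose in all 4 comparisons, by 1.31 (adjusted p = 0.0139) and 1.99 (adjusted p = 0.000554) in pooled dSCs and bSCs and by 1.74 (adjusted p = 0.0118) and 2.23 (adjusted p = 0.00139) in single-nerve dSCs and bSCs. The collagens called were 1 of 5 and 2 of 5 in the pooled experiment and 2 of 5 and 4 of 5 in single nerves, all higher, Col1a1 by 2.24 (adjusted p = 0.0292) and Col1a2 by 1.57 (adjusted p = 0.00662) in single-nerve bSCs. Col5a1 rose by 1.47 (adjusted p = 0.0218) in pooled bSCs and by 1.22 (adjusted p = 0.0288) and 1.51 (adjusted p = 0.00624) in single-nerve dSCs and bSCs. The elastin-degrading enzymes called were 2 of 6 in pooled dSCs, 1 of 6 in pooled bSCs, and 3 of 7 and 2 of 7 in single-nerve dSCs and bSCs, all higher. Among them Mmp14, a membrane-bound matrix metalloproteinase, rose in all 4 comparisons, by 1.59 (adjusted p = 0.0464), 1.66 (adjusted p = 0.0193), 2.08 (adjusted p = 0.0233) and 2.28 (adjusted p = 0.01). Ctsl, a lysosomal cathepsin, rose by 0.93 (adjusted p = 0.039) in pooled dSCs, and Mmp2, a gelatinase, by 1.70 (adjusted p = 0.0127) in single-nerve dSCs. Ctss, a cathepsin abundant in macrophages, rose by 4.13 (adjusted p = 5.76e-05) and 4.20 (adjusted p = 2.93e-05) in single-nerve dSCs and bSCs, where all 6 macrophage markers rose as well. Between single-nerve bSCs and dSCs, Mfap2 differed by 0.46 (adjusted p = 0.529) and Postn by 1.04 (adjusted p = 0.496).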

How the data were processed

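Sorted tdTomato+ cells were profiled with Smart-seq2 libraries, which are full-length, PCR-amplified and unstranded. The authors mapped reads to mm9 with TopHat2 2.0.11, counted those falling in each gene by means of HTSeq, and deposited these raw counts lane by lane. Lanes of a library were summed here, and HTSeq category and spike-in rows were left out. CPM are counts per 1000000 of the effective library size, which is the total of the genes tested multiplied by its TMM factor, and RPKM divide them by the exonic length (NCBIM37 annotation, GENCODE M1). Amplified reads carry no molecular identifiers, and the total per library (given with the results) limits precision for Loxl4 above all. The rat cultured SC experiment was not analysed here. Some SC marker genes are not reported here.

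One edgeR 4.0.16 quasi-likelihood model was fitted per experiment (R 4.3.3; TMM; filterByExpr with a minimum count of 10) to 13751 genes in pooled and 15519 in single nerves, with p-values adjusted over all genes at a threshold of 0.05. The test was tried on simulated data. All 10 genes are named, as is every gene of the pathway lists called in any of the 4 comparisons of dSCs or bSCs with iSCs. The members, lists and tests were chosen with earlier results of these data known. Per-mouse differences use log2(CPM + 1). Replicates are labelled as separate pools or mice. Same-numbered dSC and bSC libraries come from the same mouse per the labels (10 pairs, with correlations of their deviations from group means of -0.13 to 0.68); for 1 bSC library of day 10 the labels conflict, and it was left out of the pairs. Pooled libraries of 1 number share a pool number (10 pairs, -0.15 to 0.12). Alternatives were DESeq2 1.42.0, its size factors, other filters, replicate blocks, a covariate for libraries deposited as 1 file or a pair of lanes, and left-out libraries.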

Additional observations from a re-analysis of the deposited data

Results flagged for a closer look

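In 5 of 40 combinations of gene and group of 4 or 5 libraries, 1 library stood apart from the others by Dixon's ratio. Its critical values give about 1 in 20 for independent, normally distributed values. Here CPM were used without a log, and the combinations share libraries, so 5 of 40 cannot be set against that rate. Eln was at 255 CPM in pooled bSC replicate 3, with the other 3 bSC libraries at 10.9 to 41.0 CPM, and at 614 CPM in pooled iSC replicate 5, with the others at 22.03 to 91.0. Fbln2 was at 1869 CPM in pooled bSC replicate 5, with the others at 840.4 to 1015. Loxl2 was at 135 CPM in pooled dSC replicate 3, with the others at 346 to 380.3. Loxl3 was at 152 CPM in pooled iSC replicate 4, with the others at 80.8 to 81.5. No difference between days met the condition for a closer look.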

How the results depend on the processing

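Of 1205 values of the 10 genes under other settings, 1180 kept their side of the threshold, 10 lost and 15 gained a call. Among the 1180, 39 uncalled values changed sign, and no value called in either setting did. The tests over dSC days and of the change of the regional difference with day have no direction. Between single-nerve bSCs and dSCs, 0 genes of the 10 became 1 with the replicate block by mouse (Fbln2), 1 with that block without the day 4 pair, and 1 (Lox) without the day 4 pair and the 2 further libraries named with the Lox result. It was 0 with the block without day 10 and 0 with any 1 library left out. In single-nerve dSCs against iSCs, 3 became 1 (Fbn2) without the 4 libraries with the fewest genes detected, and 1 to 3 with 1 library left out. In single-nerve bSCs against iSCs, 2 became 4 with DESeq2, which added Fbn1 and Loxl1 (adjusted p = 0.0412 and 0.0388), and 2 to 4 with 1 library left out, the 4 without iSC replicate 5. Over the days of dSCs, 2 became 1 without the day 4 pair and 1 without the 4 libraries with the fewest genes detected (Fbn1, adjusted p = 0.0507 and 0.0568). Pooled counts were 2 to 3 in dSCs and 3 to 4 in bSCs with 1 library left out. Leaving out iSC replicate 5 added Fbn1 in pooled dSCs and Loxl1 in pooled bSCs. DESeq2 added Fbn1 in pooled dSCs (1.35, adjusted p = 0.0321), Loxl3 in single-nerve dSCs (0.98, adjusted p = 0.0391) and Loxl2 over the dSC days (adjusted p = 0.0349). The causes were not tested.

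Over all genes, DESeq2 called 1393 against 732 genes in pooled dSCs, 3114 against 2022 in pooled bSCs, 579 against 16 between single-nerve regions, 1624 against 826 and 2089 against 1449 in single-nerve dSCs and bSCs, and 705 against 119 over dSC days. The block by pool number gave 287 and 968 calls in pooled dSCs and bSCs, with the same members called, and the block by mouse gave 236 of 16190 genes between regions, 177 without the day 4 pair and 0 without day 10. Without the 4 libraries with the fewest genes detected the region contrast called 92 genes. The filter of at least 100 counts in at least 85% of libraries left 7171 genes and did not test Loxl4. The alternatives planned for the rat experiment were not run.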
